A study of Saccharomyces cerevisiae with 4 samples.

Results

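The genes described here encode 30 enzymes and helper proteins of ergosterol and fatty acid synthesis in budding yeast. They were chosen by systematic ORF name from a list that runs along the sterol pathway from *ERG10* to *ERG4* and then adds *OLE1*, *FAS1*, *FAS2*, *ACC1*, *ELO1*, *ELO2* and *ELO3*. All 30 names were found among the 5371 ORFs of the deposited footprint table, and the symbol of each matched the reference annotation. The list was drawn up with earlier results of these libraries known, and *OLE1* was singled out in the same way, so the values of *OLE1* against the rest are a description.

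The libraries are ribosome profiling libraries, in which the mRNA fragments protected by ribosomes (footprints) are sequenced. There were 2 wild-type and 2 *dbp1Δ* libraries, which the labels number 1 and 2 in each genotype and the submitters call biological replicates. All came from diploid SK1 cells taken 6 h after the shift to sporulation (SPO) medium, of the rich kind with potassium acetate as the carbon source, and treated for 30 s with cycloheximide, a block of translation elongation, at 100 µM by the sample labels, where the methods give the same figure in µg/ml. Values of a genotype are given below as a pair, replicate 1 before replicate 2. The *dbp1Δ* strain lacked the ORF of *DBP1*, an RNA helicase, which had been removed from a haploid with Cas9 and a repair fragment, leaving no resistance marker. The wild-type strain had no such edit, and no source states how many independent clones were used.

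*DBP1* itself measured 164 and 147 RPKM (footprint reads scaled to the length of the gene and to the mapped reads of the library) in the wild-type libraries and 0.578 and 0.449 RPKM in the *dbp1Δ* libraries. The depth that the steps of the values imply was between 4619164 and 5789192 reads. All 8 early meiotic markers and all 8 middle meiotic markers checked were measured, with summed levels between 3500 and 5045 RPKM and between 13991 and 15402 RPKM across the libraries. *IME2*, a kinase of meiotic entry, was the highest early marker at a mean of 1756 RPKM, and *SPR3*, a sporulation septin, the highest middle marker at 4111 RPKM. Of 3 late spore wall markers, 2 were measured and summed to between 39.6 and 244 RPKM, with *DIT1*, an enzyme of spore wall dityrosine synthesis, the higher one. Of 9 genes typical of haploid cells, 4 were measured, with summed levels between 1649 and 1942 RPKM, nearly all of it from *STE18*, which encodes the gamma subunit of the pheromone response G protein. *CLN1* and *CLN3*, cyclins of vegetative cell cycle entry, summed to between 1.79 and 3.55 RPKM. The other genes of these marker lists, among them *DIT2* and the cyclin gene *CLN2*, were looked up and not found among the ORFs of the table. In such bulk libraries fewer cells that make a protein and fewer ribosomes on its mRNA in each cell cannot be told apart.

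Ergosterol is the main sterol of fungal membranes. Acetyl-CoA is joined and reduced to mevalonate, mevalonate is turned into isoprenoid units that are condensed to squalene, and squalene is epoxidised, closed into rings and then trimmed, methylated and desaturated to ergosterol. The same acetyl-CoA feeds fatty acid synthesis, in which acetyl-CoA carboxylase and the fatty acid synthase make saturated chains, the Ole1 desaturase introduces the double bond and the Elo enzymes lengthen the chain. Several steps of the sterol branch and the Ole1 step use molecular oxygen. During sporulation the cell builds a new membrane around each haploid nucleus, which calls for sterols and fatty acids.

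Footprint levels along the pathway were uneven in all 4 libraries, as the plot of levels in pathway order shows. Mean RPKM over the 4 libraries ran from 3.12 for *HMG1* to 1627 for *ERG25*, with a median of 68.7 for the 30 genes against 33.0 for all ORFs of the table. Of the 30 genes, 23 lay above the median of all ORFs. The 6 highest were *ERG25*, *ERG10*, *OLE1*, *ELO2*, *ELO3* and *ERG13*, all above 400 RPKM on average, and these alone held between 73.0% and 75.2% of the summed RPKM of the 30 genes. The 4 lowest, *ERG20*, *ERG24*, *ERG7* and *HMG1*, lay below 20 RPKM. When the genes were put in order of mean RPKM, the ranges of 23 of the 29 neighbouring pairs overlapped across the 4 libraries. The 6 breaks fell between *ERG25* and *ERG10*, *ERG13* and *ERG6*, *HMG2* and *MVD1*, *ERG12* and *ELO1*, *ERG24* and *ERG7*, and *ERG7* and *HMG1*. Together the 30 genes took between 0.758% and 0.901% of the reads of a library.

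**Figure D1:**
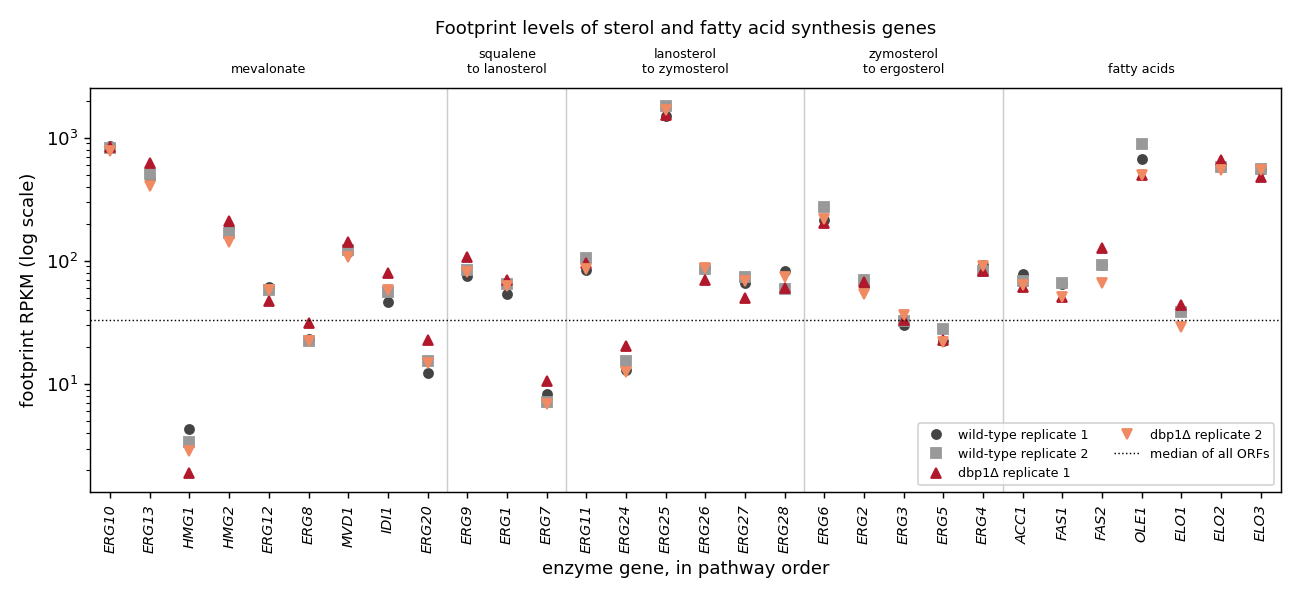
Footprint RPKM on a log axis for each of the 30 genes in pathway order, with 1 point per library and a dotted line at the median of all ORFs (33.0 RPKM). *ERG25* sits highest at a mean of 1627 RPKM and *HMG1* lowest at 3.12 RPKM, and the ranges of 23 of the 29 neighbouring pairs in order of level overlap.

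The mevalonate steps started high and ended low. *ERG10* (YPL028W), the thiolase that joins acetyl-CoA units, measured 849 and 819 RPKM in the wild-type pair, against 841 and 778 RPKM in the *dbp1Δ* pair. *ERG13* (YML126C), which encodes HMG-CoA synthase, followed at 472 and 509 RPKM in the wild-type pair and 623 and 404 RPKM in the *dbp1Δ* pair, so the highest and the lowest value of this gene both came from *dbp1Δ*. The 3 steps from mevalonate to isopentenyl diphosphate were lower. Mevalonate kinase (*ERG12*, YMR208W) averaged 56.1 RPKM, phosphomevalonate kinase (*ERG8*, YMR220W) 24.9 RPKM and mevalonate diphosphate decarboxylase (*MVD1*, YNR043W) 123 RPKM, so the decarboxylase stood above both kinases. *IDI1* (YPL117C), the isomerase that balances the isoprenoid units, averaged 60.2 RPKM. *ERG20* (YJL167W), the farnesyl diphosphate synthase from which sterols, dolichol, ubiquinone and prenyl groups all derive, measured 12.3 and 15.4 RPKM in the wild-type pair and 22.7 and 14.7 RPKM in the *dbp1Δ* pair. Its rank by mean RPKM was 3650 of 5371 ORFs, although its level rests on only 65 reads in wild-type replicate 1.

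HMG-CoA reductase, the rate-limiting enzyme of the pathway, is made from a pair of genes, and nearly all of its footprints were on *HMG2* (YLR450W). *HMG2* measured 184 and 170 RPKM in the wild-type pair, against 210 and 142 RPKM in the *dbp1Δ* pair. *HMG1* (YML075C) measured only 4.32 and 3.42 RPKM in wild type, resting on 71 and 49 reads, and 1.89 and 2.85 RPKM in *dbp1Δ*, resting on 34 and 44. The *HMG2* level was thus 42.7 and 49.7 times that of *HMG1* in the wild-type libraries and 111 and 49.9 times in the *dbp1Δ* libraries. The order was the same in every library. Between the *dbp1Δ* libraries, *HMG2* was 1.48-fold higher and *HMG1* 1.51-fold lower in replicate 1, where the exact 95% Clopper-Pearson interval of *HMG1* ran from 1.31 to 2.64 RPKM. *HMG1* and *HMG2* are paralogs, and how reads that fit both were assigned is not given in the sources used here.

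*ERG9* (YHR190W) and *ERG1* (YGR175C), which make squalene and its epoxide, lay close together and above the steps around them. Squalene synthase (*ERG9*) averaged 86.9 RPKM, between 4.77 and 6.09 times the level of *ERG20* just before it. Squalene epoxidase (*ERG1*), an oxygen-using enzyme and the target of allylamine antifungals, averaged 62.9 RPKM. *ERG7* (YHR072W), lanosterol synthase, measured 8.31 and 7.09 RPKM in the wild-type pair and 10.5 and 6.87 RPKM in the *dbp1Δ* pair, the second lowest level of the 30 genes.

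After lanosterol, 1 gene stood far above its partners. *ERG25* (YGR060W), the methyl sterol oxidase that starts removal of the methyl groups at carbon 4 of the sterol ring, measured 1509 and 1796 RPKM in the wild-type pair, against 1534 and 1669 RPKM in the *dbp1Δ* pair. It ranked 99 of 5371 ORFs by mean RPKM and held between 24.2% and 28.0% of the summed RPKM of the 30 genes. Its partners in the same reaction cycle were *ERG26* (YGL001C), a sterol dehydrogenase, at a mean of 82.8 RPKM, *ERG27* (YLR100W), a keto sterol reductase, at 64.5 RPKM, and the scaffold protein gene *ERG28* (YER044C) at 69.1 RPKM. The level of *ERG25* was between 17.1 and 22.0 times that of *ERG26*, between 22.7 and 30.6 times that of *ERG27* and between 18.3 and 30.3 times that of *ERG28* across the 4 libraries. *ERG11* (YHR007C), the lanosterol demethylase targeted by azoles, averaged 92.4 RPKM, and *ERG24* (YNL280C), the sterol reductase that follows it, 15.3 RPKM.

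The last steps, from zymosterol to ergosterol, ran from 23.7 to 228 RPKM on average. *ERG6* (YML008C), the methyltransferase that adds a carbon to the sterol side chain, was the highest of the 5, at 215 and 275 RPKM in the wild-type pair and 201 and 219 RPKM in the *dbp1Δ* pair. The final reductase (*ERG4*, YGL012W) averaged 87.3 RPKM and the isomerase (*ERG2*, YMR202W) 63.7 RPKM. The desaturases were lower, with *ERG3* (YLR056W) at 33.0 RPKM and *ERG5* (YMR015C) at 23.7 RPKM.

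Among the fatty acid genes the desaturase and the long-chain elongases led. *ELO2* (YCR034W) measured 576 and 576 RPKM in the wild-type pair and 658 and 548 RPKM in the *dbp1Δ* pair, and *ELO3* (YLR372W) 544 and 562 RPKM in the wild-type pair and 475 and 542 RPKM in the *dbp1Δ* pair. Both extend chains to the very long fatty acids of sphingolipids. *ELO1* (YJL196C), which elongates medium-length chains, averaged 37.7 RPKM, so *ELO2* was between 14.7 and 18.9 times and *ELO3* between 10.8 and 18.7 times as high. *ACC1* (YNR016C), the acetyl-CoA carboxylase of the cytosol, averaged 68.3 RPKM, and *FAS1* (YKL182W) and *FAS2* (YPL231W), the beta and alpha subunits of the fatty acid synthase, averaged 58.5 and 95.3 RPKM.

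*OLE1* (YGL055W), the only fatty acid desaturase of this yeast, measured 669 and 894 RPKM in the wild-type pair, against 496 and 493 RPKM in the *dbp1Δ* pair. The genotypes did not overlap, with *dbp1Δ* the lower one, and the wild-type libraries were further apart from each other (1.34-fold) than the *dbp1Δ* libraries (1.01-fold). The mean was 782 ± 159 RPKM (SD, n = 2 libraries) in wild type and 495 ± 2.21 RPKM (SD, n = 2 libraries) in *dbp1Δ*, 1.58 times as high in wild type. Counting error is small beside these differences, since each value rests on at least 3612 reads. The exact 95% Clopper-Pearson intervals ran from 651 to 688 and from 872 to 917 RPKM in the wild-type libraries and from 482 to 512 and from 477 to 510 RPKM in the *dbp1Δ* libraries. In order of level *OLE1* was in place 3 and 2 among the 30 genes in the wild-type libraries and in place 5 in both *dbp1Δ* libraries. Set against the median of the other 29 genes, it was 8.95 and 12.7 times as high in wild type and 7.13 and 7.40 times as high in *dbp1Δ*. Its share of the summed RPKM of the 30 genes was 10.7% and 13.0% in wild type and 7.83% and 8.29% in *dbp1Δ*. The summed RPKM of the other 29 genes moved little by comparison, at a mean of 5766 in wild type and 5651 in *dbp1Δ*.

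The question put to the 2 genotypes was whether loss of *DBP1* changed the footprints on these genes. limma on log2(RPKM + 0.5), fitted over the 5338 ORFs that averaged 1 RPKM or more, called 0 of the 30 genes at an adjusted p under 0.05 (Benjamini-Hochberg), where 0.0375% of all tested ORFs were called. All 30 genes were among the ORFs tested. At an unadjusted p under 0.05 there was 1 of the 30 genes, *OLE1*, beside 1.67% of all ORFs in either direction and 0.768% on the side lower in *dbp1Δ*. The log2 difference of *OLE1*, *dbp1Δ* minus wild type, was -0.64 (standard error 0.18, adjusted p = 0.9998 from limma). It was negative with each library left out, but without wild-type replicate 2 it was -0.44 and the unadjusted p from limma was 0.236, so its size and its place below an unadjusted p of 0.05 rest on that library. The negative sign with a library left out was fixed beforehand, since both *dbp1Δ* values of *OLE1* lay below both wild-type values. Of all tested ORFs, 51 had a lower log2 difference than *OLE1*.

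**Figure D2:**
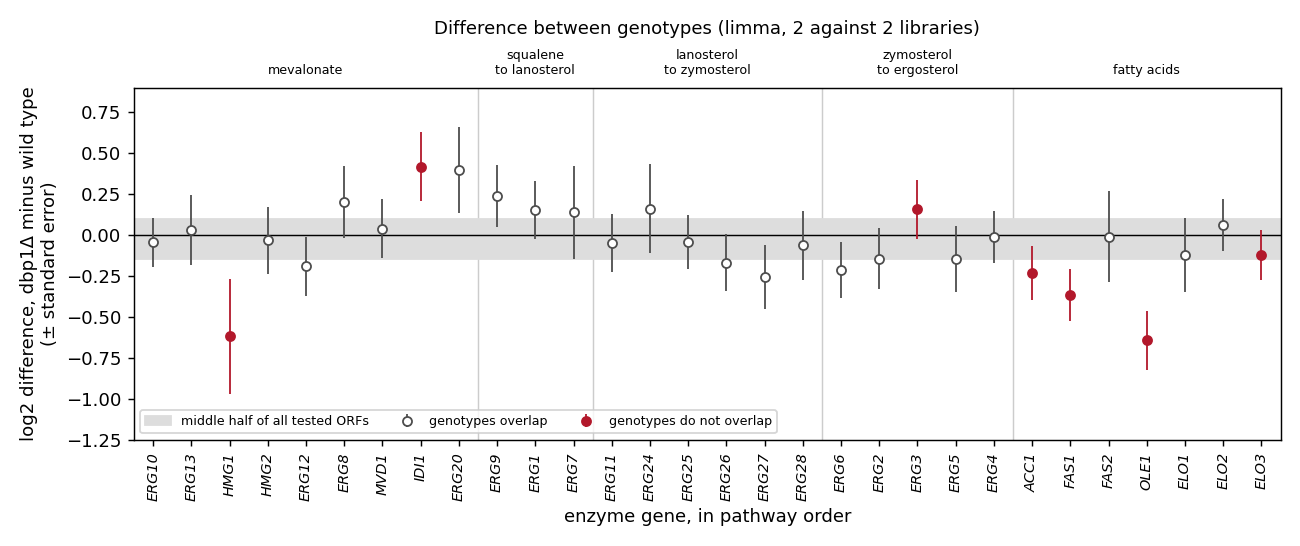
Log2 difference between genotypes (*dbp1Δ* minus wild type, limma on log2(RPKM + 0.5), bars show ± 1 standard error) for the 30 genes in pathway order, with a grey band for the interquartile range of all tested ORFs, from -0.15 to 0.10. Filled points mark the 7 genes whose genotypes do not overlap, of which *OLE1* at -0.64 and *HMG1* at -0.62 are lowest and *IDI1* at 0.42 is highest.

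Over the 30 genes the log2 difference was positive for 11 and negative for 19, where 43.0% of all tested ORFs were positive and 57.0% negative. The median was -0.04 for the 30 genes and -0.03 for all tested ORFs. The libraries of the genotypes did not overlap for 2 genes that were higher in *dbp1Δ* (9.59% of all ORFs) and 5 that were lower (15.3% of all ORFs). Together these are 7 of 30 genes beside 24.9% of all ORFs, a share close to the background. By stage of the pathway, the difference was positive for 5 of 9 mevalonate genes, 3 of 3 from squalene to lanosterol, 1 of 6 from lanosterol to zymosterol, 1 of 5 from zymosterol to ergosterol and 1 of 7 fatty acid genes. None of these genes passed the adjusted threshold, and the stages were not tested against each other. The other 23 genes, whose genotypes overlapped, had log2 differences between -0.25 (*ERG27*) and 0.40 (*ERG20*).

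Of the 5 genes that lay lower in both *dbp1Δ* libraries, beside 15.3% of all tested ORFs, 4 belong to fatty acid synthesis. That grouping was not tested. *FAS1* measured 65.3 and 66.6 RPKM in the wild-type pair, against 51.4 and 50.7 RPKM in the *dbp1Δ* pair, with replicates close in each genotype. Its log2 difference was -0.37 (standard error 0.16, adjusted p = 0.9998 from limma). *ACC1* measured 78.5 and 69.2 RPKM in the wild-type pair and 61.4 and 64.1 RPKM in the *dbp1Δ* pair, a log2 difference of -0.23. *ELO3* had a log2 difference of -0.12, and its lower wild-type value, 544 RPKM, was only just above its higher *dbp1Δ* value, 542 RPKM. The exact 95% intervals of *ACC1* in wild-type replicate 2 (66.3 to 72.2 RPKM) and *dbp1Δ* replicate 2 (61.4 to 66.9 RPKM) overlapped, whereas those of *FAS1* did not overlap between any wild-type and any *dbp1Δ* library. *HMG1*, the other of the 5, had a log2 difference of -0.62 (standard error 0.35, adjusted p = 0.9998 from limma) from 198 reads in all.

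*IDI1* and *ERG3* were the genes that lay higher in both *dbp1Δ* libraries. *IDI1* measured 46.1 and 56.3 RPKM in the wild-type pair, against 80.1 and 58.3 RPKM in the *dbp1Δ* pair. Its log2 difference was 0.42 (standard error 0.21, adjusted p = 0.9998 from limma), and *dbp1Δ* replicate 2 lay close to wild type, since its exact 95% interval, from 51.1 to 66.3 RPKM, covered the value of wild-type replicate 2. *IDI1* is also a neighbour of the edited locus, 2 ORFs away from *DBP1* among the ORFs of the table in reference annotation order. Whether this position bears on its values was not tested. *ERG3* measured 30.0 and 32.3 RPKM in the wild-type pair and 33.3 and 36.4 RPKM in the *dbp1Δ* pair, a log2 difference of 0.16, and the counting intervals of all 4 libraries overlapped.

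**Figure D3:**
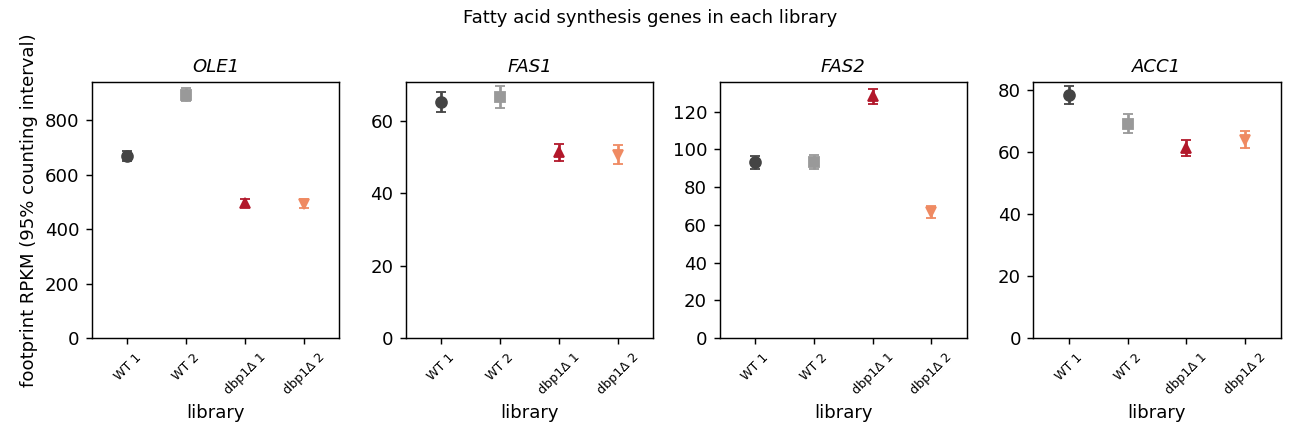
Footprint RPKM of *OLE1*, *FAS1*, *FAS2* and *ACC1* in each library on axes that start at 0, with exact 95% Clopper-Pearson intervals that cover counting error only. *OLE1* (496 and 493 RPKM) and *FAS1* (51.4 and 50.7 RPKM) lie close together in *dbp1Δ* and below wild type, while *FAS2* lies above wild type in *dbp1Δ* replicate 1 (128 RPKM) and below it in replicate 2 (66.7 RPKM).

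Of the 30 genes, 6 encode enzymes that use molecular oxygen as a substrate, *ERG1*, *ERG11*, *ERG25*, *ERG3*, *ERG5* and *OLE1*, a grouping made after the values had been seen. Apart from *OLE1*, their log2 differences lay between -0.15 and 0.16, with 2 positive and 3 negative. Apart from *OLE1*, *ERG3* was the only gene of this group whose genotypes did not overlap, and it was the higher in *dbp1Δ*.

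The *dbp1Δ* libraries also differed from each other in several of these genes. In *dbp1Δ* replicate 1 against replicate 2, 6 of the 30 genes were at least 1.5-fold higher (14.5% of all tested ORFs) and 1 was at least 1.5-fold lower (5.94% of all tested ORFs). Between the wild-type replicates 0 genes were 1.5-fold apart, where 3.05% of all ORFs were that much higher and 3.07% that much lower in replicate 1. With 1 library on each side these folds have no test. The median distance between the *dbp1Δ* libraries was 0.31 on the log2 scale for the 30 genes and 0.32 for all ORFs, and between the wild-type libraries 0.15 and 0.12.

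The 6 genes that were higher in *dbp1Δ* replicate 1 were *FAS2* (1.92-fold), *ERG24* (1.62-fold), *ERG13* (1.54-fold), *ERG20* (1.54-fold), *ERG7* (1.53-fold) and *ELO1* (1.51-fold). *HMG2*, at 1.48-fold, lay just outside, and scaling the libraries to the same median RPKM left 2 of the 6. The share over all ORFs was not counted after that scaling. The gene that was lower was *HMG1*, 1.51-fold higher in replicate 2. By stage, replicate 1 was the higher library for 7 of 9 mevalonate genes, 3 of 3 genes from squalene to lanosterol, 2 of 6 from lanosterol to zymosterol, 2 of 5 from zymosterol to ergosterol and 5 of 7 fatty acid genes. Over the 30 genes, *dbp1Δ* replicate 1 was the higher library for 19, where 54.4% of all ORFs were higher in it, and wild-type replicate 1 for 12, where 52.2% were. All 8 early meiotic markers were higher in *dbp1Δ* replicate 1 (median 1.75-fold), while 2 of 8 middle markers were higher in it (median ratio 0.787). The late spore wall markers were split. *DIT1* was at 243 RPKM in *dbp1Δ* replicate 1 and 76.5 RPKM in replicate 2, whereas *SPS100* was at 1.13 and 2.84 RPKM. The part of these markers in the values of the lipid genes was not tested.

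**Figure D4:**
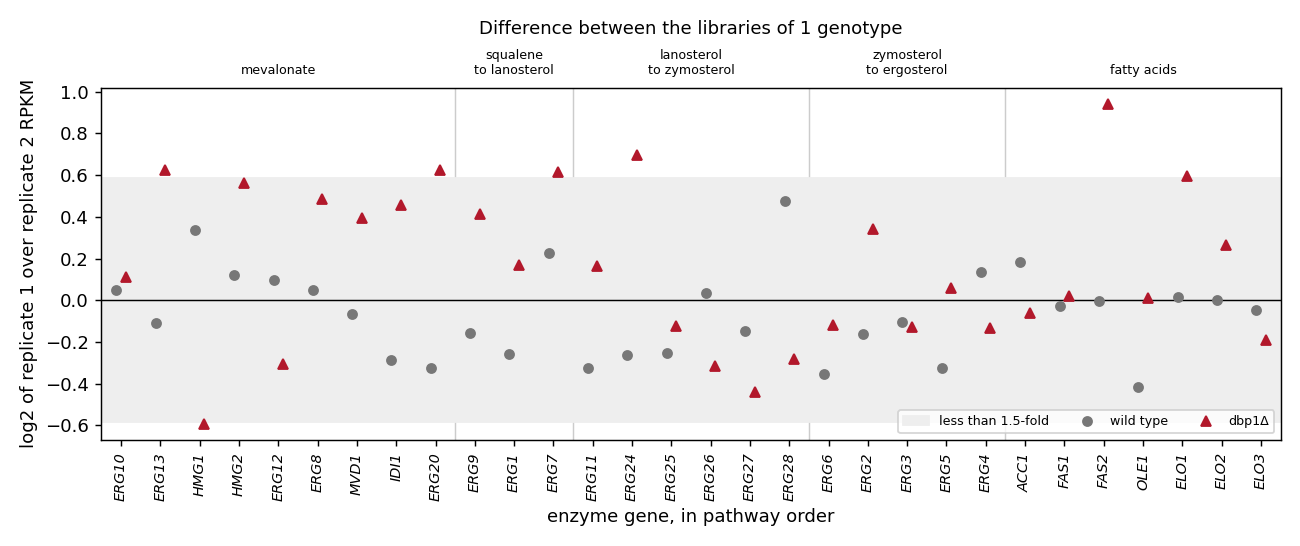
Log2 ratio of replicate 1 to replicate 2 within each genotype for the 30 genes in pathway order, with circles for wild type, triangles for *dbp1Δ* and a grey band for less than 1.5-fold. All wild-type points lie inside the band, and 6 *dbp1Δ* points lie above it (14.5% of all tested ORFs), with *FAS2* at 1.92-fold the highest. *HMG1*, 1.51-fold lower in *dbp1Δ* replicate 1, lies below it (5.94% of all tested ORFs).

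*FAS2* and *FAS1* show such a difference within 1 enzyme. The alpha and beta subunits form a complex in equal numbers, and the ratio of *FAS2* to *FAS1* RPKM was 1.43 and 1.40 in the wild-type libraries and 1.31 in *dbp1Δ* replicate 2, but 2.49 in *dbp1Δ* replicate 1. *FAS2* measured 93.1 and 93.2 RPKM in the wild-type pair, 128 RPKM in *dbp1Δ* replicate 1 and 66.7 RPKM in *dbp1Δ* replicate 2. The wild-type libraries agree within counting error for *FAS2*, and the *dbp1Δ* libraries lie on either side of them. *FAS1* differed 1.01-fold between the same *dbp1Δ* libraries. The values of *FAS2* rest on between 1858 and 4156 reads, and their exact 95% intervals, from 124 to 132 RPKM and from 63.7 to 69.8 RPKM in *dbp1Δ* replicates 1 and 2, are far apart.

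The calls between genotypes depended on *dbp1Δ* replicate 2. When it was left out, limma compared *dbp1Δ* replicate 1 with wild type and took its spread from the wild-type pair. The fit then called 3 of the 30 genes, where 9.70% of all tested ORFs were called. These were *FAS2* (log2 difference 0.46, adjusted p = 0.0377 from limma), *ERG13* (0.35, adjusted p = 0.0454) and *IDI1* (0.65, adjusted p = 0.0454), all higher in *dbp1Δ* replicate 1. With all 4 libraries the log2 differences of *FAS2* and *ERG13* were -0.01 and 0.03, and without *dbp1Δ* replicate 1 they were -0.48 and -0.28.

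Other genes of lipid synthesis were taken from a list of 46 regulators, partners and neighbouring enzymes, and all 46 were measured and tested. None passed the adjusted threshold of limma in either direction, and 1, *INO2*, had an unadjusted p under 0.05. The log2 difference was positive for 15 and negative for 31, with a median of -0.07, where 43.0% of all tested ORFs were positive and 57.0% negative. Of the 46, 6 were higher and 11 lower in both *dbp1Δ* libraries, beside 9.59% and 15.3% of all tested ORFs, and the list was not tested against the other ORFs. The highest log2 differences were those of *INO2*, at 5.30 and 4.56 RPKM in the wild-type pair and 10.1 and 7.06 RPKM in the *dbp1Δ* pair (log2 difference 0.72), and *RER2* (0.45), and the lowest were those of *PPT2* (-0.86) and *ARE1* (-0.46). *INO2* encodes an activator of phospholipid and fatty acid synthesis genes, *RER2* a dolichol-synthesis enzyme, *PPT2* the enzyme that activates the mitochondrial acyl carrier protein, and *ARE1* a sterol acyltransferase. All 4 were low, at 15.5 RPKM or less in every library.

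The regulators that act on *OLE1* and the sterol genes did not pass the threshold either. *MGA2*, an activator of *OLE1*, measured 55.3 and 58.3 RPKM in the wild-type pair, against 71.7 and 45.4 RPKM in the *dbp1Δ* pair. *SPT23*, its paralog with the same role, had a log2 difference of 0.19. The part of either gene in the *OLE1* values was not tested. The sterol regulators *UPC2* and *ECM22* had log2 differences of -0.10 and 0.15. Of the other regulators listed, *HAP1*, *ROX1* and *MOT3* had -0.10, -0.26 and -0.07. These lay lower in both *dbp1Δ* libraries, beside 15.3% of all tested ORFs. The gap was narrow for *HAP1*, at 23.5 RPKM in wild-type replicate 1 and 23.1 RPKM in *dbp1Δ* replicate 2. It was also narrow for *MOT3*, at 9.93 RPKM in wild-type replicate 2 and 9.81 RPKM in *dbp1Δ* replicate 2. *ECM22*, *SPT23* and *INO2* lay higher in both *dbp1Δ* libraries, beside 9.59% of all tested ORFs. *INO4* and *OPI1* had log2 differences of -0.0037 and -0.11, with genotypes that overlapped. *NSG1*, *NSG2* and *HRD1*, which act on the stability of HMG-CoA reductase, had log2 differences of -0.24, -0.08 and -0.12. *NCP1*, the reductase that passes electrons to Erg11, Erg1 and Erg5, measured 146 and 148 RPKM in the wild-type pair and 136 and 138 RPKM in the *dbp1Δ* pair, and the other elongation enzymes, *IFA38*, *PHS1* and *TSC13*, had log2 differences between -0.10 and -0.06.

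Uneven footprint levels between isoenzymes were not limited to *HMG1* and *HMG2*, but not every pair was uneven. The long-chain elongase genes were close, with *ELO2* between 1.01 and 1.38 times the level of *ELO3*. Pairs were picked for this comparison after their values had been seen. *ACS1*, the acetyl-CoA synthetase used on acetate, was between 68.2 and 80.9 times the level of *ACS2* in the 4 libraries. *ARE2* was between 108 and 195 times the level of its fellow sterol acyltransferase *ARE1*, and *SRT1* between 101 and 144 times the level of *RER2*, which also makes long-chain dehydrodolichols. *ACC1* was between 22.4 and 51.4 times the level of *HFA1*, its mitochondrial counterpart. The order within each pair was the same in every library, and the low partners, at between 1.34 and 7.12 RPKM for *HFA1*, *ARE1* and *RER2*, limit the precision of the ratios. Reads of paralogs that match both genes could be split, so these ratios are of footprints as the authors assigned them.

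**Figure D5:**
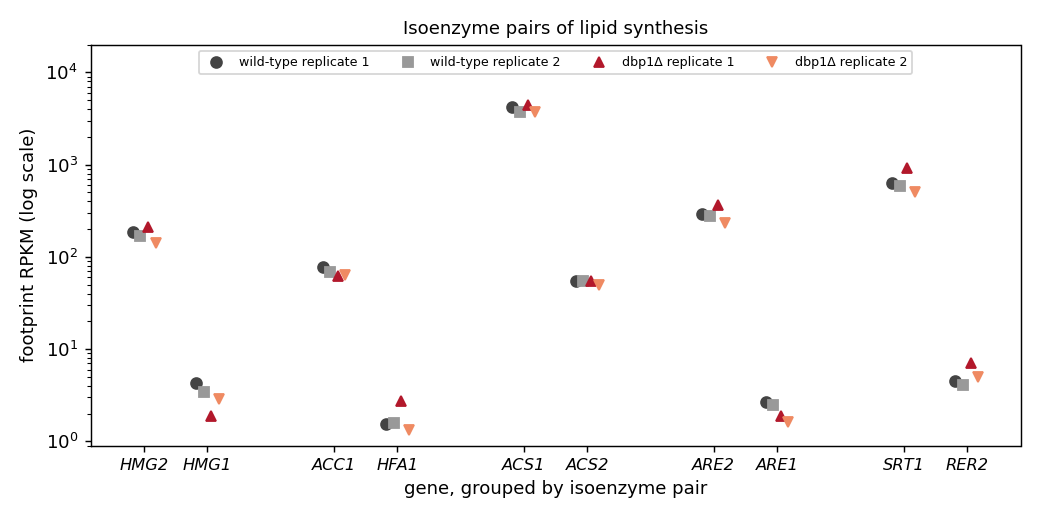
Footprint RPKM on a log axis of both members of 5 isoenzyme pairs, with 1 point per library. The first gene of each pair lies above the second in all 4 libraries, by between 22.4 times (*ACC1* over *HFA1*) and 195 times (*ARE2* over *ARE1*).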

How the data were processed

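The authors mapped footprint reads to the SK1 genome and deposited RPKM values, which scale the raw reads of a gene to its length and to the mapped reads of that library. The submitters' processing notes name Bowtie2. Which version and annotation were used, and whether ORFs were filtered, is not given in the sources used here. RPKM was not scaled between libraries.

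log2(RPKM + 0.5) was fitted with limma 3.58.1 in R 4.3.3 (lmFit, eBayes with a trend, genotype as the only term) on the 5338 ORFs (of 5371) averaging 1 RPKM or more, with Benjamini-Hochberg adjustment over all of them. Differences on this scale understate the change of low genes. With 2 libraries against 2, the smallest two-sided p of an exact permutation test is 0.333, and none was run. Symbols and lengths came from the S288C annotation (assembly R64), which has 5311 of the ORFs. Depth and reads were recovered from the steps of the values with the ORF length less 60 nt. This gave reads within 0.1 of a whole number for 90.7% of values and within 0.0107 for the 30 genes. A floor of 3 reads was not reached by any of the 30 genes, whose values rest on 34 to 7727 reads each. Intervals cover counting error only, since amplified reads are not independent molecules.

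Depth recovery and the fit were tested on simulated reads with known answers. The simulation of the fit gave both genotypes the same spread, whereas the real *dbp1Δ* libraries lay further apart than the wild-type ones. It therefore does not show how many true changes the fit finds in these data. Same-numbered libraries did not deviate together (correlation of deviations -0.135 across 5338 ORFs), so the replicate number was used only in an alternative. Alternatives were the replicate block (also with median centring), a crossed block, each library left out, limma voom on the recovered reads, quantile normalization, median centring, a pseudocount of 0.1 or 1, no trend in eBayes, and a minimum mean of 10 RPKM or none. The 30 genes and the other gene lists were chosen with earlier results of these data known. Named in the text are all 30 genes, *DBP1*, the highest gene of each marker list and the extremes of the other lipid genes. *SPS100*, *CLN1*, *DIT2* and *CLN2* of the marker lists are also named. Regulators and isoenzymes named beyond these were chosen after their values were seen. No sequences were used here. Tables were handled in Python 3.11.15 with pandas 2.3.3 and numpy 2.4.6, intervals came from scipy 1.17.1 and plots from matplotlib 3.10.9.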

Additional observations from a re-analysis of the deposited data

How the results depend on the processing

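No alternative with all 4 libraries called any of the 30 genes, and their smallest adjusted p was 0.456 over these fits, the crossed pairing left out. The count of the 30 genes in the fit without a trend, 0, was added after seeing the data. The count of ORFs past the adjusted threshold was 2, and the replicate block gave 25 (24 after median centring as well) and limma voom on the recovered reads 1, with 141 and 70 ORFs at an unadjusted p under 0.05 under block and voom. Since the deviations of same-numbered libraries correlated slightly below 0, the crossed pairing was added after seeing the data, and it called 28 ORFs and 0 of the 30 genes. Leaving out each library in turn gave between 1 and 518 ORFs and between 0 and 3 of the 30 genes, with the upper values without *dbp1Δ* replicate 2. The number of the 30 genes higher in *dbp1Δ* then lay between 8 and 17, and the number lower between 13 and 22. Genes whose genotypes did not overlap then numbered between 2 and 14 on the higher side and between 10 and 17 on the lower side. With a library left out, such counts can only stay or rise for any set of ORFs. The share over all ORFs was not counted for that setting, so the rise is no result about these genes. With all 4 libraries, the 5 genes on the lower side were 4 with median centring and 4 with quantile normalization. The 2 on the higher side were 3 with quantile normalization. The 6 genes at least 1.5-fold higher in *dbp1Δ* replicate 1 were 2 with libraries scaled to the same median. They were 3 with quantile normalization and 4 with a pseudocount of 1, and the 1 lower gene was 0 with that pseudocount. The shares over all ORFs were not counted for these settings. The *FAS2* log2 difference of -0.01 became 0.0084 with median centring, with and without the replicate block, and 0.053 with quantile normalization, and lay between -0.48 and 0.46 with each library left out. That of *ERG13* lay between -0.28 and 0.35. That of *IDI1* was 0.65 without *dbp1Δ* replicate 2. The cause was not tested for any of these. *OLE1* was lower in *dbp1Δ* in all 15 fits, with a log2 difference between -0.85 and -0.44. These fits reuse the same 4 libraries, so their number adds no support. *HMG1* and *ERG7* have no value with a mean of at least 10 RPKM. Depth limits *HMG1*, with 34 to 71 reads a library.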

Other observations

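Genes next to the pathway were among the highest lipid genes of these libraries. *ACB1*, which encodes the acyl-CoA binding protein, measured 9539 and 9237 RPKM in the wild-type pair, against 8305 and 10492 RPKM in the *dbp1Δ* pair, above every one of the 30 genes. *YEH1*, a steryl ester hydrolase, averaged 919 RPKM, and *YEH2*, which has the same activity, 45.3 RPKM. *DAP1*, a heme-binding protein that helps Erg11, averaged 637 RPKM, above *ERG11* itself.

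The 8 genes of mitochondrial fatty acid synthesis were uneven in the same way, from *ACP1*, the acyl carrier protein, at a mean of 363 RPKM to *HFA1* at 1.79 RPKM, with log2 differences that were positive for 4 and negative for 4. *SRT1* was at 925 RPKM in *dbp1Δ* replicate 1 and 508 RPKM in *dbp1Δ* replicate 2, with the wild-type libraries between them at 634 and 584 RPKM.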
